A study of Mus musculus with 106 samples.

Results

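The 8 genes Msh3, Msh6, Mlh3, Pms1, Pms2, Fan1, Lig1 and Rrm2b are DNA repair genes known as modifiers of CAG repeat instability or of the age at which Huntington's disease (HD) begins. They were listed by name for that role, and all 8 were found, by Ensembl identifier, among the 55401 mouse genes of the count table. In mismatch repair, a MutS complex that contains Msh3 or Msh6 recognises mispaired or looped-out bases, and a MutL complex that contains Mlh3, Pms1 or Pms2 then directs the cut, so that the strand can be resynthesised and sealed. At CAG repeats these steps can add units instead of restoring the sequence, and the lengthening of the Htt repeat in neurons is widely held to set the pace of the disease. Expansions are known to be large in the striatum and small in the cerebellum.

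Ribosome-bound mRNA was immunoprecipitated (IP) from homogenised mouse brain hemispheres with RiboTag, an HA tag on the ribosomal protein Rpl22 that Cre recombinase switches on in chosen cells, and total RNA of part of the homogenates (input) was sequenced beside it. The 67 IP and 39 input libraries came from 45 mice and formed 24 groups. HD mice were heterozygous for the HdhQ200 knock-in allele (Hdh Q7/Q200), controls were Hdh Q7/Q7 littermates, both carried the RiboTag allele and a Cre driver on a 129S4 background, and none received a treatment. They were about 9 months old, except that no age is given in the sources used here for the SST line. The paper does not describe the mice of that line, so its account of breeding and littermates covers only the Gad2, PV and vGluT2 lines. From the cerebrum, taken without the olfactory bulb, the Gad2, PV, SST and vGluT2 lines gave 6, 6, 5 and 6 control IPs and 6, 5, 4 and 6 HD IPs. From the cerebellum, the Gad2 and vGluT2 lines gave 6 and 5 control IPs and 6 HD IPs each. Inputs numbered 3 or 4 per line, region and genotype. Library totals ran from 21905238 to 107753596 estimated counts, with a median of 35866734.

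An IP holds RNA of every cell the driver reached, including cells that expressed it only earlier in life. The drivers were Gad2-IRES-Cre for GABAergic neurons, PV-IRES-Cre for parvalbumin neurons and vGluT2-IRES-Cre (at Slc17a6), which in the cerebellum also marks granule neurons. Markers in control libraries are given here as CPM after TMM normalization, a scale on which 1 gene can be compared across libraries. Gad2 ranged from 250.0 to 494 CPM in cerebral Gad2 IPs and from 70.5 to 141 in the inputs of that line, and from 190 to 312 against 65.4 to 98.5 in the cerebellum. Pvalb ranged from 450 to 724 CPM in PV IPs against 74.9 to 144 in their inputs, and Sst from 809 to 1503 in SST IPs against 105.7 to 154. Slc17a6 ranged from 42.8 to 155 CPM in cerebral vGluT2 IPs against 21.5 to 47.6 in their inputs, which overlap. In the cerebellar vGluT2 line IP and input overlapped for Slc17a6, at 22.6 to 109 and 6.46 to 61.3 CPM, while Slc17a7 of granule neurons lay at 1088 to 1686 in IPs and 432 to 742 in inputs. Slc17a6 did not set the cerebral vGluT2 IPs apart from PV and SST IPs, where it lay at 78.7 to 140 and 75.6 to 127 CPM, and its source there was not tested.

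Libraries differed in how far transcripts of low and high GC content were represented, and the levels of most of the 8 genes moved with that difference. A base composition index was taken per library as the median log2 CPM of the 3658 expressed genes of lowest GC content (at most 45.1% GC) minus that of the 3659 of highest (at least 54.9%), and it ran from -2.33 to 0.62. Over all libraries, which share cell type, region and run with the index, its Pearson correlation with log2 CPM was 0.89 for Rrm2b, 0.83 for Msh3, 0.78 for Mlh3, 0.72 for Pms1, 0.70 for Msh6, 0.50 for Fan1, 0.49 for Pms2 and -0.03 for Lig1. Rrm2b and Pms1 transcripts are poor in GC, at 39.4% and 41.0%, and Lig1 and Fan1 are richest of the 8, at 53.6% and 51.6%. The index correlated at 0.88 with a like index of transcript length. The part of the 2 indices in the results below was not tested beyond the fits named.

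On the GRCm38 build, the genes lie on 7 chromosomes. Msh3 (ENSMUSG00000014850.15) spans 92211872 to 92355003 of chromosome 13 on the minus strand, and Msh6 (ENSMUSG00000005370.4) spans 87975062 to 87990892 of chromosome 17 on the plus strand. Mlh3 (ENSMUSG00000021245.15) spans 85234520 to 85270599 of chromosome 12 (minus), Pms1 (ENSMUSG00000026098.13) 53189187 to 53297018 of chromosome 1 (minus), and Pms2 (ENSMUSG00000079109.11) 143909964 to 143933968 of chromosome 5 (plus). Fan1 (ENSMUSG00000033458.17) and Lig1 (ENSMUSG00000056394.17) are both on chromosome 7, at 64346758 to 64374095 (minus) and 13277283 to 13311433 (plus), and Rrm2b (ENSMUSG00000022292.16) spans 37923952 to 37961318 of chromosome 15 (minus). Pms2 shares 5794 and 934 bases on its own strand with the predicted gene Gm42421 and with Rsph10b, whose medians in IPs were 0.0636 and 0.967 CPM, so its counts are uncertain by what was split between them.

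Msh3, the MutS partner that directs repair to small loops, was most abundant on average in control cerebellar vGluT2 IPs. Its 5 values there were 21.1, 30.1, 33.0, 32.8 and 33.5 CPM. PV IPs followed with a lowest, median and highest of 24.6, 25.4 and 30.2 CPM, then SST IPs (16.3, 23.4, 26.4, 28.3 and 29.4), cerebellar Gad2 IPs (19.1, 20.03 and 33.2), cerebral vGluT2 IPs (17.3, 20.1 and 22.1) and cerebral Gad2 IPs (9.89, 19.7 and 25.9). Each group overlapped the next in that order. In bulk libraries fewer cells of a type and less RNA per cell cannot be told apart.

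Msh6, the partner for single base mismatches, was also highest in control cerebellar vGluT2 IPs, with values of 25.2, 36.0, 44.4, 50.9 and 40.5 CPM. Means of the other groups were 26.8 CPM in cerebellar Gad2, 22.9 in PV, 20.05 in cerebral vGluT2, 19.8 in cerebral Gad2 and 18.3 in SST IPs, and neighbours in that order overlapped. Per kilobase of exon (FPKM, on the union of exons), Msh6 exceeded Msh3 in every control IP library. The log2 ratio of Msh3 to Msh6 FPKM ran from -1.11 to -0.61 in SST, -1.29 to -1.08 in PV, -1.57 to -1.10 in cerebral vGluT2, -1.72 to -1.02 in cerebral Gad2, -2.07 to -0.91 in cerebellar Gad2 and -2.01 to -1.63 in cerebellar vGluT2 IPs. The SST, PV and cerebral vGluT2 ranges lay wholly above that of cerebellar vGluT2 IPs, and groups next to each other in order overlapped. The sign of the ratio depends on the length used, since with the longest transcript in place of the exon union its mean was 0.46 in SST and 0.20 in PV IPs and -0.37 in cerebellar vGluT2 IPs.

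Among the MutL partners, Pms1 had the widest fold range of group means. Its 5 values in control cerebellar vGluT2 IPs were 8.07, 11.4, 12.1, 10.4 and 10.7 CPM, all above the 6 cerebellar Gad2 IPs, which had a lowest, median and highest of 3.73, 5.37 and 7.67 CPM. The cerebral groups lay lower on average, at 3.77 CPM in PV, 3.16 in vGluT2, 2.95 in Gad2 and 2.84 in SST IPs, and overlapped one another. A cerebral Gad2 library held the smallest control IP count of Pms1, 21 estimated counts, so its cerebral values are imprecise. Pms2, the partner in the main mismatch repair nuclease, had values of 20.8, 21.6, 20.1, 23.1 and 20.8 CPM in cerebellar vGluT2 IPs. These did not overlap the cerebral vGluT2 IPs, next in order at 12.9 to 17.8 CPM, after which came cerebellar Gad2 (mean 14.8), SST (13.3), PV (12.3) and cerebral Gad2 IPs (11.8), all overlapping. Mlh3, whose complex cuts DNA near loops, was the most even of the 3. Its group means ran from 20.3 CPM in SST through 17.5 in PV, 17.1 in cerebral vGluT2, 15.9 in cerebellar vGluT2 and 15.7 in cerebellar Gad2 to 14.9 in cerebral Gad2 IPs, and all neighbours overlapped.

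As shares of their summed FPKM, the MutL partners were balanced differently in the granule-rich libraries. Pms1 made up 19.1% to 26.7% (median 23.5%) in control cerebellar vGluT2 IPs, 12.1% to 23.1% in cerebellar Gad2, 10.4% to 13.9% in PV, 6.94% to 13.5% in cerebral vGluT2, 6.03% to 10.8% in SST and 3.28% to 17.6% in cerebral Gad2 IPs. Mlh3 made up 32.0% to 36.1% in cerebellar vGluT2 IPs and 51.6% to 65.4% in SST IPs, which do not overlap. The Pms2 share of 41.3% to 45.7% in cerebellar vGluT2 IPs overlapped that of cerebral vGluT2 IPs, 36.8% to 50.1%. These shares were described and not tested.

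Fan1, the nuclease of interstrand crosslink repair that slows repeat expansion, was among the least abundant. Its 5 values in control cerebellar vGluT2 IPs were 7.47, 9.22, 7.42, 8.36 and 7.59 CPM, followed by means of 7.02 in cerebellar Gad2, 6.13 in SST, 5.76 in cerebral vGluT2, 5.05 in PV and 4.07 in cerebral Gad2 IPs. Lig1, the ligase that seals nicks in replication and repair, reached 21.04, 23.9, 34.3, 27.5 and 29.3 CPM in cerebellar vGluT2 IPs. Its means elsewhere were 20.04 in cerebral Gad2, 19.6 in cerebellar Gad2, 18.2 in SST, 16.7 in PV and 14.2 in cerebral vGluT2 IPs. Rrm2b, the ribonucleotide reductase subunit that supplies dNTPs outside S phase, had means from 40.3 CPM in cerebral vGluT2 through 36.5 in cerebral Gad2, 35.0 in SST, 34.9 in cerebellar Gad2 and 30.8 in PV to 30.2 in cerebellar vGluT2 IPs. For each of these 3 genes, all neighbours in the order overlapped.

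**Figure D1:**
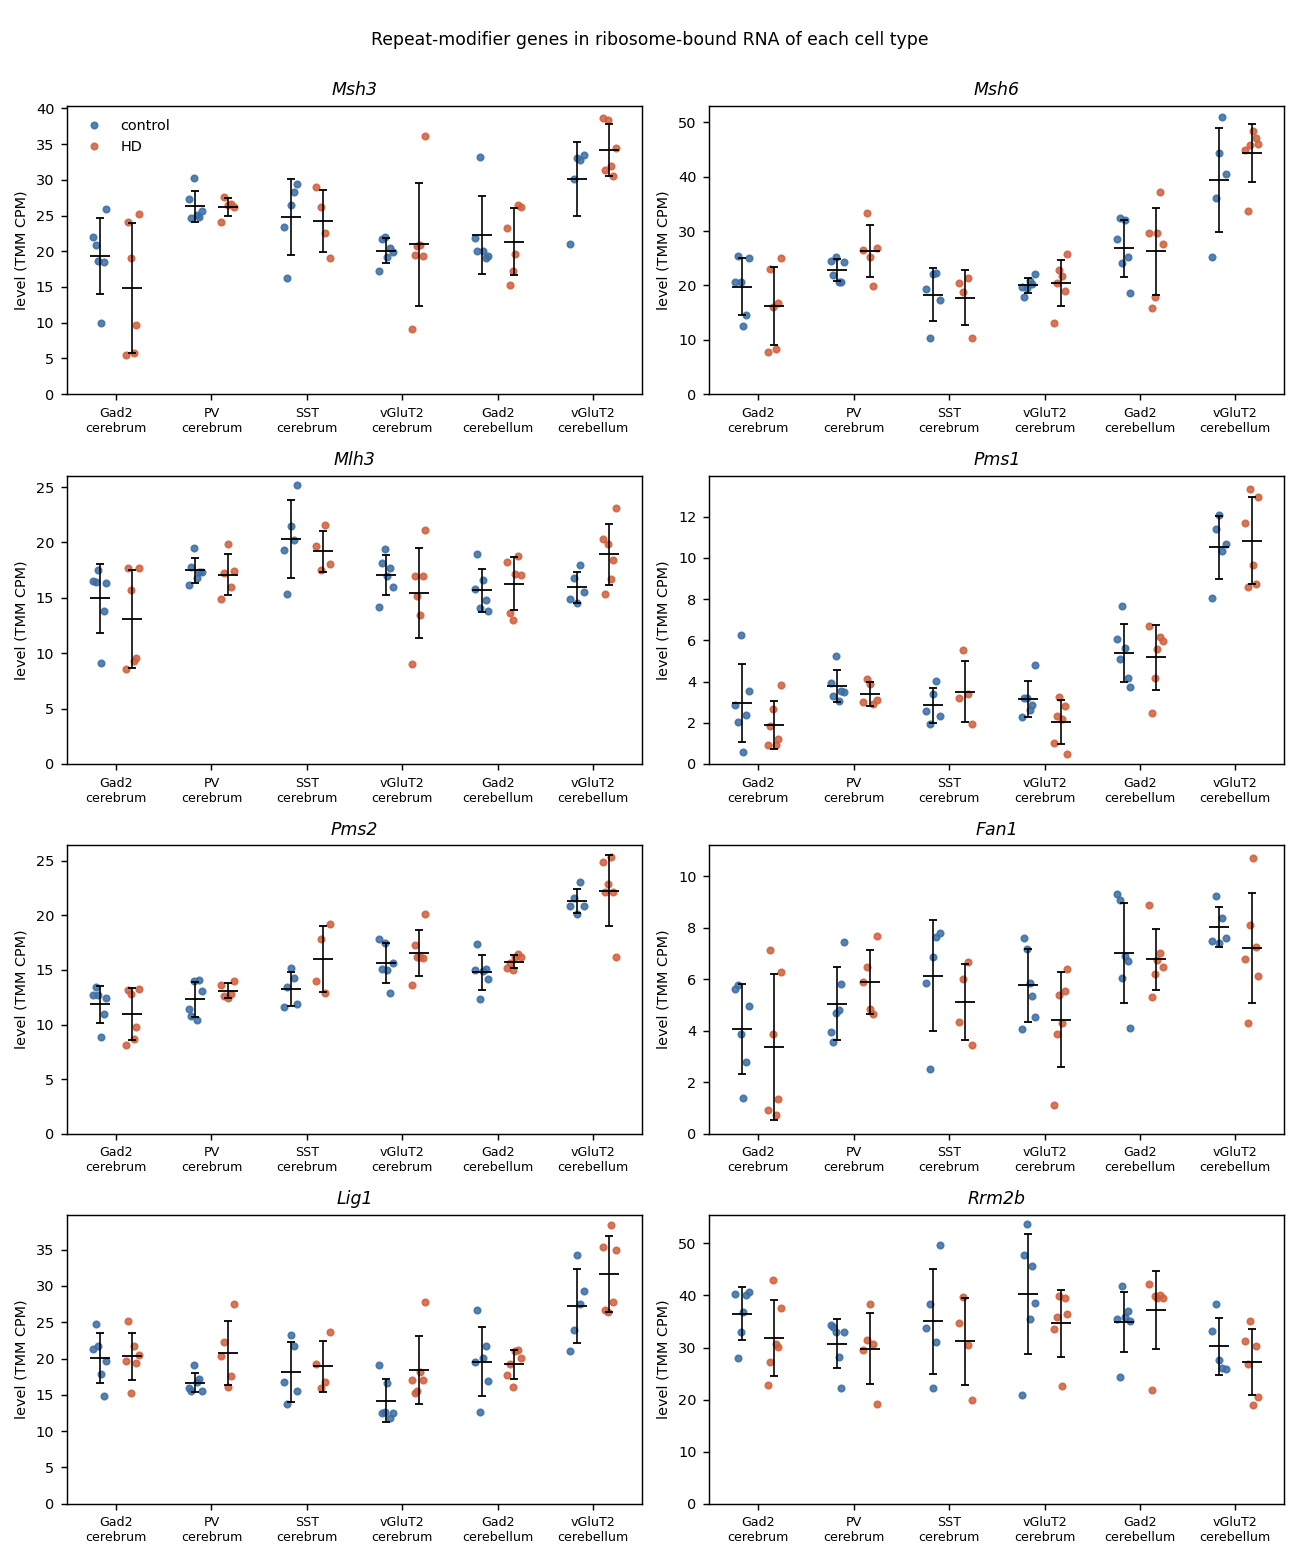
Level of each of the 8 genes in every IP library (1 panel per gene, CPM after TMM on the vertical axis), by line and region, with control libraries in blue and HD libraries in orange. Horizontal lines are group means and bars are standard deviations. The 5 control cerebellar vGluT2 libraries lie at 8.07 to 12.1 CPM for Pms1, above every control library of the other groups.

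Compared per length, Msh6, Lig1 and Rrm2b were the 3 most abundant of the 8 in every control IP group, and Pms1 and Fan1 the least abundant. Mean FPKM on the exon union in cerebellar vGluT2 IPs was 9.07 for Msh6, 6.37 for Lig1, 3.31 for Rrm2b, 2.67 for Msh3, 2.62 for Pms2, 2.11 for Mlh3, 1.40 for Pms1 and 1.32 for Fan1. In cerebral Gad2 IPs it was 4.70 for Lig1, 4.55 for Msh6, 3.997 for Rrm2b, 1.98 for Mlh3, 1.72 for Msh3, 1.46 for Pms2, 0.670 for Fan1 and 0.391 for Pms1. In PV IPs the Msh6 mean of 5.26 did not overlap the Lig1 mean of 3.91 in its libraries, whereas Lig1 and Rrm2b (3.37) overlapped. With the longest transcript as the length, Rrm2b came first in every control IP group but cerebellar vGluT2, with mean FPKM of 6.74 in PV, 7.67 in SST, 8.004 in cerebral Gad2, 7.66 in cerebellar Gad2 and 8.84 in cerebral vGluT2 IPs. Msh3 then moved ahead of Msh6 in PV (6.18 and 5.38) and SST IPs (5.83 and 4.30), and by little in cerebral vGluT2 IPs (4.720 and 4.716).

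Does the same driver line carry more repair transcript in the cerebellum than in the cerebrum? In control vGluT2 IPs, 5 of the 8 genes were higher in the cerebellum and none was lower. Pms1 rose most, from a lowest, median and highest of 2.29, 3.03 and 4.78 CPM in the cerebrum to the 5 cerebellar values given above, a log2 fold change of 1.68 (SE 0.19). Msh6 differed by 0.92 (SE 0.15), Lig1 by 0.89 (SE 0.16), Msh3 by 0.53 (SE 0.13) and Pms2 by 0.39 (SE 0.11). The cerebral libraries ranged from 17.9 to 22.01 CPM for Msh6, 11.9 to 19.1 for Lig1 and 17.3 to 22.1 for Msh3. The groups did not overlap for Msh6, Pms1, Pms2 and Lig1, and for Msh3 1 cerebellar library fell within the cerebral range. The share of all genes without overlap was not counted in this or any other comparison, so a lack of overlap has no background here.

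The Benjamini-Hochberg adjusted p of edgeR's quasi-likelihood test was 3.83e-06 for Pms1, 9.251e-05 for Msh6, 0.0002573 for Lig1, 0.002897 for Msh3 and 0.006347 for Pms2. Of all 14277 genes tested, 63.2% passed, 4422 higher and 4595 lower in the cerebellum, so 5 of 8 is close to the background share. The log2 fold changes of the 3 that did not pass were 0.42 for Fan1, -0.16 for Mlh3 and -0.47 for Rrm2b. The same mice gave both regions, and each of the 5 genes was higher in the cerebellum of 5 of 5 control mice. Their log2 ratios within a mouse ran from 1.82 to 1.98 for Pms1, 0.35 to 1.28 for Msh6, 0.28 to 0.78 for Msh3, 0.20 to 0.69 for Pms2 and 0.14 to 1.44 for Lig1. Fan1, which did not pass, was also higher in 5 of 5 (0.05 to 0.88). In the 6 HD mice of that line, Pms1, Msh6 and Lig1 were higher in the cerebellum in 6 of 6 and Msh3 and Pms2 in 5 of 6. Their Pms1 log2 ratio was 1.62 to 4.80, with a median of 2.08. The cerebral library of 1 of these mice was sequenced again, and Pms1 made up 1.15% of the summed MutL FPKM in it. No omission of 1 library ended any of the 5 calls. Fan1 passed without cerebral replicate 2 (0.51) or 3 (0.49), and Rrm2b without cerebellar replicate 2 (-0.58) or cerebral replicate 1 (-0.61). DESeq2 called 7, with Fan1 (0.41) and Rrm2b (-0.48) added, beside 64.6% of the genes it tested. With the base composition or the length index as a covariate, chosen after the data were seen, Rrm2b (-0.64 in each) and Mlh3 (-0.23 and -0.27) were called lower.

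Within the cerebellum, do granule-rich and GABAergic populations differ? Of the 8 genes, 4 were higher in control vGluT2 than in Gad2 IPs and none was lower. Of all genes, 56.4% passed in either direction, so 4 of 8 is not above the background share. Pms1 differed by a log2 fold change of 0.94 (SE 0.20) and Pms2 by 0.50 (SE 0.11), and neither overlapped, the Gad2 IPs having a lowest, median and highest of 12.3, 14.9 and 17.3 CPM for Pms2. Msh6 differed by 0.53 (SE 0.18) and Lig1 by 0.45 (SE 0.18). For both, the vGluT2 libraries overlapped the Gad2 libraries, which ranged from 18.7 to 32.5 CPM for Msh6 and from 12.6 to 26.7 for Lig1. By edgeR's quasi-likelihood test the adjusted p was 0.001039 for Pms1, 0.001775 for Pms2, 0.0237 for Msh6 and 0.04248 for Lig1, where 56.4% of 13879 genes passed. The control vGluT2 IPs are the same libraries as in the comparison of regions. Lig1 lost its call in 8 of 11 omissions of 1 library (log2 fold change 0.34 to 0.47) and on library totals without TMM (0.45). Msh6 lost its call without vGluT2 replicate 3 (0.49), 4 (0.39) or 5 (0.48). Msh3, at 0.41 with an adjusted p of 0.0566 in the same test, passed without Gad2 replicate 5 (0.55), without vGluT2 replicate 1 (0.48), on library totals (0.45) and without the filter on counts (0.43). Rrm2b (-0.23) was called lower with the base composition index as a covariate (-0.36).

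In the Gad2 line 1 of the 8 genes passed between regions, and the difference between the 2 lines was not tested. Fan1 was higher in cerebellar IPs, with a lowest, median and highest of 4.11, 6.80 and 9.30 CPM, than in cerebral IPs, at 1.37, 4.43 and 5.78. Its log2 fold change was 0.78 (SE 0.31), the groups overlapped, and it was higher in the cerebellum of 5 of 6 mice. In edgeR's quasi-likelihood test Fan1 alone of the 8 passed, with an adjusted p of 0.04719, where 51.1% of 14368 genes did. The other log2 fold changes ran from -0.07 for Rrm2b to 0.88 for Pms1 (adjusted p 0.07473), and 4 of the 8 had an unadjusted p under 0.05, as had 56.7% of all genes. With the mouse as a block, since both regions came from the same mice, 2 members passed, Fan1 and Pms1 (1.06, adjusted p 0.0412), and Pms1 was higher in the cerebellum in 6 of 6 mice. Fan1 lost its call in 8 of 12 omissions of 1 library (0.59 to 0.85), with DESeq2 size factors (0.76), on library totals (0.70) and with the base composition (0.77) or length index (0.40) as a covariate, and with the base composition index Pms1 passed (0.82). Msh6 passed without cerebellar replicate 2 (0.52), cerebral replicate 4 (0.51) or cerebral replicate 2 (0.51), Pms1 without cerebral replicate 5 (1.22) and Pms2 without cerebellar replicate 5 (0.38).

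Between cerebral populations 0 to 2 of the 8 genes passed. Pms2 was higher in vGluT2 IPs (12.9, 15.4 and 17.8 CPM as lowest, median and highest) than in Gad2 IPs (8.86, 12.6 and 13.4), by 0.38 on the log2 scale (SE 0.12). Lig1 was lower in vGluT2 IPs (11.9, 12.5 and 19.1 CPM) than in Gad2 IPs (14.8, 20.5 and 24.8), with a log2 fold change of -0.51 (SE 0.15). Both overlapped between the groups. The adjusted p of edgeR's quasi-likelihood test was 0.02926 and 0.01671, and these 2 members passed beside 29.8% of 14433 genes. Pms2 lost its call without Gad2 replicate 1 (0.37), without vGluT2 replicate 3 (0.35) and on library totals (0.34).

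PV IPs held more Msh3 and Mlh3 than the Gad2 IPs, which are the same control libraries as in the last comparison. Msh3 differed by 0.56 (SE 0.17) and Mlh3 by 0.34 (SE 0.14), the Mlh3 values being 16.2, 17.3 and 19.5 CPM in PV and 9.14, 16.4 and 17.5 in Gad2 IPs (lowest, median and highest). The groups overlapped for both genes, though for Mlh3 not with normalization over these 12 libraries alone. By edgeR's quasi-likelihood test the adjusted p was 0.01119 for Msh3 and 0.04176 for Mlh3, 2 members beside 58% of 14501 genes. The length index was higher in PV IPs, at 1.10 to 1.77 against 0.43 to 1.07 in Gad2 IPs, without overlap. With that index as a covariate both turned, to -0.08 and -0.06, whereas with the base composition index, which overlapped between the groups, both kept their calls. Marker sums of other cells also lay apart in PV and Gad2 IPs, at 1332 to 1829 against 306 to 1099 CPM for astrocytes and 175 to 307 against 4173 to 5742 for striatal projection neurons, as did Slc17a7 at 725 to 956 against 122 to 406, and their part was not tested. Mlh3 lost its call in 7 of 12 omissions of 1 library (0.27 to 0.34), by DESeq2 (0.29), with DESeq2 size factors (0.29) and without the filter on counts (0.33), while Msh6 passed without Gad2 replicate 4 (0.40) or 2 (0.41). Between SST and PV IPs, edgeR called 0 of the 8 genes, where 18.2% of 14596 genes passed. Here 0 had an unadjusted p under 0.05 (32.2% of all genes), DESeq2 called 0, and the log2 fold changes ran from -0.40 for Pms1 to 0.29 for Fan1.

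Total RNA differed between regions too. In control inputs, 6 of the 8 genes were higher in the 7 cerebellar than in the 13 cerebral libraries. Of all genes, 70.6% passed in either direction, so 6 of 8 is close to the background share. Pms1 differed by 2.31 on the log2 scale (SE 0.29), Msh3 by 1.46 (SE 0.29), Msh6 by 1.11 (SE 0.17), Fan1 by 1.07 (SE 0.18), Pms2 by 0.72 (SE 0.11) and Mlh3 by 0.61 (SE 0.19). Fan1, at 7.09 to 9.27 CPM in the cerebellum, and Pms2, at 13.6 to 16.3, did not overlap the cerebral libraries, whether normalized over all libraries or over those compared. Msh6, at 15.03 to 24.5, and Pms1, at 3.32 to 6.81, did not overlap with the former and did with the latter. Of the mice, 4 gave an input of each region, whose deviations from their group means correlated at 0.18 to 0.50, and the main fit does not take the mouse into account. In a fit to those 4 mice with the mouse as a block, added after the data were seen, the 6 genes kept their calls and Rrm2b was called higher (0.80). All 6 passed edgeR's quasi-likelihood test, with adjusted p from 4.302e-07 for Pms1 to 0.008928 for Mlh3, where 70.6% of 14899 genes did. The base composition index differed between these groups, with medians of -0.59 and 0.36 in the cerebellar and -1.47 to -0.93 in the cerebral control inputs. With that index as a covariate Mlh3 lost its call (0.01) and Rrm2b turned from 0.45 to -0.57, and with the length index Mlh3 was at -0.01 and Rrm2b at -0.54. Rrm2b was called lower in both index fits (adjusted p 4.425e-05 and 0.001833, edgeR's quasi-likelihood test). The other 5 kept their calls and direction in both fits, and Lig1 (0.10) passed in both (0.33 and 0.31). Rrm2b passed without replicate 1 of the cerebral Gad2 inputs (0.59).

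Were the transcripts more abundant in the IPs than in total RNA of the tissue? In the cerebrum most were, against inputs of all lines, where 61.9% to 69.2% of all genes passed in either direction. An IP differs from an input both in the cells sampled and in holding ribosome-bound RNA. In either region these 2 differences cannot be told apart. Control IPs of each line were compared with all 13 control cerebral inputs, which the 4 comparisons share. Msh3, with a median of 25.4 CPM in PV IPs and of 4.22, 5.62, 4.63 and 6.003 CPM in the inputs of the Gad2, PV, SST and vGluT2 lines, was higher by 2.25 on the log2 scale in PV (SE 0.29), 2.18 in SST (SE 0.31), 1.73 in vGluT2 (SE 0.29) and 1.69 in Gad2 IPs (SE 0.31). Pms1 was higher by 1.87, 1.48, 1.49 and 1.40 in the same order, and Msh6 by 1.36, 1.05, 1.04 and 1.04. With either normalization, Msh3 and Msh6 did not overlap between PV IPs and inputs, nor Msh6 and Pms2 between vGluT2 IPs and inputs. Pms1 in PV and Msh3 in vGluT2 IPs were free of overlap only when normalized over all libraries, and Pms2 in SST IPs only over those compared.

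In edgeR's quasi-likelihood test 7 of the 8 genes passed in PV (69.2% of 14831 genes), 8 in SST (61.9% of 14857), 7 in vGluT2 (64% of 14824) and 7 in Gad2 IPs (62.6% of 14795), all higher in the IP. The exceptions were Fan1 in PV (0.46) and Gad2 (0.04) and Lig1 in vGluT2 IPs (-0.06). The cerebral inputs had lower base composition indices than the IPs, with medians of -1.47 to -0.93 in the inputs and 0.16 to 0.23 in the IPs. With the index as a covariate 3 members passed in Gad2 (58.9% of all genes) and 4 in vGluT2 IPs (60.5%), and with the length index 2 passed in SST IPs, near the 24.5% of all genes in that fit. In PV IPs Rrm2b was called lower with the base composition index (-0.26, adjusted p 0.01231) and with the length index (-0.52, adjusted p 0.006155), both by edgeR's quasi-likelihood test, and Mlh3 (0.26 and 0.0058) and Pms2 (0.26 and 0.10) lost their calls. Against inputs of the same line alone, with the mouse as a block, 0 members passed in Gad2 IPs, where 16.6% of all genes did. There Msh3 was at 1.23, Msh6 at 0.70, Rrm2b at 0.60, Lig1 at 0.48, Pms1 at 0.36, Pms2 at 0.03 and Mlh3 at -0.05. In SST IPs 5 members passed (43% of genes). In that fit Fan1 (0.36) and Pms2 (0.61) lost their calls in vGluT2 IPs (48.3% of genes), and in PV IPs (56.2%) Lig1 lost its call (0.22) and Fan1 passed (0.86). Fan1 in PV IPs also passed by DESeq2 (0.48), with its size factors (0.48) and on library totals (0.52), and on library totals Fan1 lost its call in vGluT2 IPs (0.50). In Gad2 IPs Pms2 lost its call by DESeq2 (0.28), with its size factors (0.28) and without the filter on counts (0.30), and Mlh3 without that filter (0.48). Leaving out 1 library ended the Gad2 calls of Mlh3 in 14 of 19 omissions (0.38 to 0.50) and of Pms2 in 13 of 19 (0.21 to 0.31). It ended the vGluT2 call of Fan1 without PV input replicate 3 (0.45), SST input replicate 1 (0.43) or vGluT2 IP replicate 2 (0.40), 3 (0.42) or 5 (0.50), and the SST call of Rrm2b without SST IP replicate 6 (0.72). Fan1 passed in PV IPs without Gad2 input replicate 1 (0.56), PV IP replicate 3 (0.52) or 4 (0.55), or vGluT2 input replicate 3 (0.51).

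In the cerebellum 5 of the 8 genes passed in vGluT2 IPs (56.7% of all genes) and 2 in Gad2 IPs (57.1%). The difference from the cerebrum was not tested. Granule-rich vGluT2 IPs exceeded the 7 control cerebellar inputs for Pms1 by 0.85 (SE 0.20), Msh6 by 0.84 (SE 0.16), Msh3 by 0.79 (SE 0.17), Lig1 by 0.71 (SE 0.16) and Pms2 by 0.35 (SE 0.10). Pms1 and Pms2 did not overlap with either normalization, the inputs lying at 3.32 to 6.81 and 13.6 to 16.3 CPM. Msh3 and Msh6, at 10.7 to 19.7 and 15.03 to 24.5 CPM in the inputs, did not when normalized over all libraries and did over those compared. These 5 passed edgeR's quasi-likelihood test, with adjusted p from 0.0004796 for Msh6 to 0.005849 for Pms2, where 56.7% of 14317 genes did, and no omission changed a call. With the mouse as a block and inputs of the same line alone Pms2 lost its call (0.30). Gad2 IPs exceeded the same inputs for Msh3 (0.44, adjusted p 0.04295) and Msh6 (0.37, adjusted p 0.04288), 2 members beside 57.1% of 14378 genes in that test. Msh3 lost its call in 5 of 13 omissions (0.32 to 0.44) and Msh6 in 8 of 13 (0.31 to 0.39). Lig1 passed without Gad2 IP replicate 5 (0.44) or Gad2 input replicate 1 (0.40). Both calls were lost with DESeq2 size factors (Msh3 0.42 and Msh6 0.35) and on library totals (0.29 and 0.25). With inputs of the same line and the mouse as a block Msh6 lost its call (0.61) and Rrm2b passed (0.85), as Rrm2b did with the base composition (0.26) and the length index (0.45) and Lig1 with the former (0.38).

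Other genes were read from 8 lists of 109 genes, 6 of repair pathways and dNTP supply, 1 of p53 targets and 1 of dividing cells. In vGluT2 IPs of the cerebellum against the cerebrum, 47 of the 99 tested were higher and 23 lower, beside 4422 higher and 4595 lower (63.2%) of all 14277 genes, whose median log2 fold change was -0.00. Nucleotide excision and transcription-coupled repair had 8 of 14 higher and 0 lower (median 0.50), led by Ercc8 (1.36), Xpa (0.99) and Ercc4 (0.95). Among the other mismatch repair genes, 1 of 4 was higher, Msh5 (2.56). The sliding clamp, its loader and the polymerases that refill a gap had 7 of 15 higher and 3 lower (median 0.39), with Pold1 at 1.99, Rfc4 at 1.35 and Pold2 at 0.91. Interstrand crosslink repair, the pathway of Fan1, had 7 of 17 higher and 3 lower (median 0.26), with Fancd2 at -4.41, Mus81 at 1.52 and Usp1 at 1.31. Base excision repair had 7 of 16 higher and 5 lower (median 0.17), with Mutyh at 1.86, Neil2 at -1.59 and Ogg1 at -1.39. Genes of dNTP supply, the pathway of Rrm2b, had 6 of 10 higher and 3 lower (median 0.63), with Dctd at -2.39, Rrm2 at -1.88 and Dguok at 1.502. Genes of dividing cells had 6 of 10 higher and 2 lower (median 1.45), with Ccne1 at -2.45, Cdk1 at 2.19 and Mcm5 at 2.02. Of the p53 target genes 5 of 13 were higher and 7 lower (median -0.46), with Phlda3 at -2.32, Pmaip1 at -2.29 and Sesn1 at 1.34.

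Between cerebellar vGluT2 and Gad2 IPs, 35 of 97 listed genes were higher and 17 lower, beside 4061 higher and 3767 lower (56.4%, median 0.02) over all genes. Nucleotide excision repair had 6 of 14 higher and 0 lower, with Ercc8 at 1.01, Uvssa at 0.71 and Ercc6 at 0.68, and crosslink repair 6 of 16 higher and 1 lower, with Fanca at 1.93, Usp1 at 1.27 and Slx4 at 0.92. Msh5 (2.04) was the 1 of 3 mismatch repair genes that passed. Clamp, loader and synthesis genes had 5 of 15 higher and 1 lower, with Rfc4 at 1.20, Pold1 at 1.16 and Hmgb1 at 1.11, and base excision repair 4 of 16 higher and 2 lower, with Parp1 at -1.19, Neil2 at -1.12 and Mutyh at 0.74. The dNTP genes had 5 of 10 higher and 4 lower, with Dctd at -2.33, Rrm2 at -1.003 and Dguok at 0.97, and dividing cell genes 4 of 10 higher and 2 lower, with Bub1 at -4.13, Ccne1 at -2.41 and Mcm5 at 1.42. Of the p53 targets 4 of 13 were higher and 7 lower, with Pmaip1 at -3.30, Bbc3 at 2.24 and Aen at -1.30. In the other control comparisons, 29 of 96 listed genes were higher and 13 lower in cerebellar than cerebral Gad2 IPs (51.1% of all genes passed), and 8 of 97 higher and 9 lower in cerebral vGluT2 than Gad2 IPs (29.8%). Of 99 each, 26 were higher and 27 lower in PV than Gad2 IPs (58%), 3 and 10 in SST than PV IPs (18.2%), and 41 and 22 in cerebellar than cerebral inputs (70.6%).

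Some members start close to another gene, a feature that the list did not use. Pms1 and Pms2 each start within 1000 bases of a gene on the other strand, Pms1 77 bases from Ormdl1, a regulator of sphingolipid synthesis, and 93 from the predicted gene Gm28778, and Pms2 117 bases from Aimp2, a scaffold of the aminoacyl-tRNA synthetase complex. Over the 67 IP libraries the Pearson correlation of log2 CPM within a pair was 0.66 for Pms1 and Ormdl1 and -0.02 for Pms2 and Aimp2. In vGluT2 IPs of the cerebellum against the cerebrum, Ormdl1 was higher by 1.70 (adjusted p 5.208e-05) beside Pms1 at 1.68, whereas Aimp2 was at -0.36 (adjusted p 0.04428) beside Pms2 at 0.39, both by edgeR's quasi-likelihood test. Between cerebellar vGluT2 and Gad2 IPs, the log2 fold changes were 0.84 for Ormdl1 and -0.04 for Aimp2. Ormdl1 and Pms1 lay apart at -0.48 and 0.48 between PV and Gad2 IPs, where neither passed. Against total RNA they lay apart at 0.12 and 1.87 in PV and 0.16 and 1.48 in SST IPs. In the control comparisons given next they went the same way. Between regions they were at 1.21 and 0.88 in Gad2 IPs, where Pms1 did not pass, and at 1.67 and 2.31 in total RNA. Against total RNA they were at 0.94 and 0.85 in cerebellar and 0.92 and 1.49 in cerebral vGluT2 IPs.

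Promoter sequences, 250 bases before to 50 after a start, were available for 7 of the 8 genes from RefSeq (GRCm38.p6), and Rrm2b is the gene without one. Those of the 5 genes that were higher together in cerebellar vGluT2 IPs are printed 5' to 3' on the strand of the gene, to show what their starts hold. Capitals mark matches, on either strand, to an E2F-type motif (TTTCGCGC or TTTGGCGC), a GC box (GGGCGG) or a CCAAT box (CCAAT). None of the windows held the other motifs looked for, of NRF1 and CRE type. Msh3 lies at chr13:92354954-92355253 (minus), Msh6 at chr17:87974800-87975099 (plus), Pms1 at chr1:53296979-53297278 (minus), Pms2 at chr5:143909751-143910050 (plus) and Lig1 at chr7:13278576-13278875 (plus).
Msh3: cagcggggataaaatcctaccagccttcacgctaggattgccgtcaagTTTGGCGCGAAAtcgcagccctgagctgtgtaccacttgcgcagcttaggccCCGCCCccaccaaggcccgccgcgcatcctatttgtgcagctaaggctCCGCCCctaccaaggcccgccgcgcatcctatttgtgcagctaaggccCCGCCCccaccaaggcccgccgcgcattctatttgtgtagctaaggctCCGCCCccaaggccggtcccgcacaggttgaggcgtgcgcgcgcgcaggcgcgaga
Msh6: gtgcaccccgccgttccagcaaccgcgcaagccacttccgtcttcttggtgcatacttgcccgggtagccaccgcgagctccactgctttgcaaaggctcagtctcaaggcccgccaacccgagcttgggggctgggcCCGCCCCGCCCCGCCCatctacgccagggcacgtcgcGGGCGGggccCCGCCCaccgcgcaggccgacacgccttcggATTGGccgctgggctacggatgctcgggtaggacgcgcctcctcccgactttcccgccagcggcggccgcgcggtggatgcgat
Pms1: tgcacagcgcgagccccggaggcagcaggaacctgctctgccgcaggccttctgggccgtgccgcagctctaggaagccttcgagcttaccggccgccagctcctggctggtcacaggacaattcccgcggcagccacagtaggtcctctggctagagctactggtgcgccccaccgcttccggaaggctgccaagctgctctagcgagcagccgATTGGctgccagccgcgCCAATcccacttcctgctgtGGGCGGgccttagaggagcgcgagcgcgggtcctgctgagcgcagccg
Pms2: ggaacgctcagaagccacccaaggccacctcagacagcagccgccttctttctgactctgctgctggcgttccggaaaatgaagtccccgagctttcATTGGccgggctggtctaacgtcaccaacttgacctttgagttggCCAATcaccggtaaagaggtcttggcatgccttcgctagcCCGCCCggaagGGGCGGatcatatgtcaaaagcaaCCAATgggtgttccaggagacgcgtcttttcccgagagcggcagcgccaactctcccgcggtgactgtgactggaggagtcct
Lig1: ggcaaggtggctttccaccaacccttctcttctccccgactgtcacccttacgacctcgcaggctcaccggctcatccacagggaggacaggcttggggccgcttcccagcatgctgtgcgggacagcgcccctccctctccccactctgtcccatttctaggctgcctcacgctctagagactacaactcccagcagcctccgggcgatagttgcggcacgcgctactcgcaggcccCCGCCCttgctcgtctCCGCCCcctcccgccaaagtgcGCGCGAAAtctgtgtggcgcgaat

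Msh3 holds 2 E2F-type matches that overlap in TTTGGCGCGAAA and 4 GC boxes, with 29 CpG dinucleotides and 65.0% GC. The Lig1 window printed holds 1 E2F-type match and 2 GC boxes, and it is 1 of 3 windows listed for that gene, of which another holds 1 GC box and the remaining one no match. Msh6 holds 5 GC boxes, 3 of them overlapping end to end, and 1 CCAAT box, Pms1 1 GC box and 2 CCAAT boxes, and Pms2 2 GC boxes and 3 CCAAT boxes. Of the other members, both windows of Mlh3 hold 1 CCAAT box and that of Fan1 holds none of the motifs. Among 32544 promoters of that length, 0.820% hold an E2F-type match, 35.9% a GC box, and 37.4% a CCAAT box, and the median promoter has 7 CpG dinucleotides and 53% GC. A match is a description, not a site or a cause.

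Does the expanded Htt repeat change these genes in the tagged neurons? In none of the 6 IP populations did any of the 8 pass the test, and the intervals show how large an effect each leaves room for. In PV IPs the Msh3 values were 24.6, 25.4 and 30.2 CPM in controls (lowest, median and highest) and 24.1, 26.3, 27.6, 26.6 and 26.5 in HD, a log2 fold change of -0.02 (95% interval -0.21 to 0.16). Mlh3 was at -0.05 (-0.25 to 0.15) and Pms2 at 0.07 (-0.14 to 0.29), and the widest intervals there were those of Fan1 (0.20, -0.21 to 0.61) and Rrm2b (-0.06, -0.44 to 0.32). Lig1 had values of 15.5, 16.4 and 19.1 CPM in controls and 20.4, 27.5, 22.2, 17.6 and 16.1 in HD, which overlap, with a log2 fold change of 0.29 and an unadjusted p of 0.03157 in the edgeR fit. By edgeR's quasi-likelihood test 0 members passed in PV IPs, beside 0.034% of 14713 genes, 1 of 8 had an unadjusted p under 0.05 (4.28% of all genes), and DESeq2 called 0.

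In cerebral Gad2 IPs, which sample the striatal projection neurons with other GABAergic cells, all 8 fitted log2 fold changes were below 0, with a median of -0.24. The median over all genes tested was -0.006, and the share of all genes below 0 was not counted. Most members vary together across IP libraries, so the 8 signs are not independent. The libraries scattered widely, and for Lig1 the group means went the other way, at 20.04 CPM in controls and 20.29 in HD. Msh3 ranged from 9.89 to 25.9 CPM (median 19.7) in controls and from 5.41 to 25.2 (median 14.3) in HD, and Pms1 from 0.588 to 6.25 (median 2.63) and from 0.912 to 3.81 (median 1.52). The groups overlapped for all 8. The 95% intervals were accordingly wide, -1.22 to 0.44 for Msh3, -1.70 to 0.42 for Pms1, -1.44 to 0.90 for Fan1 and -0.31 to 0.29 for Lig1. The base composition index was lower in the HD libraries, with a median of -0.58 against 0.17. By edgeR's quasi-likelihood test 0 members passed beside 0.0279% of 14342 genes, 0 had an unadjusted p under 0.05 (9.15% of all genes), and DESeq2 called 0.

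SST and cerebral vGluT2 IPs gave no call either. In SST IPs the Msh3 values were 16.3, 23.4, 26.4, 28.3 and 29.4 CPM in controls and 29.0, 26.1, 22.6 and 19.0 in HD. The 8 log2 fold changes ran from -0.26 for Fan1 to 0.31 for Pms1. The controls were mice labelled BR10, BR17, Z56, Z57 and Z59 and the HD mice BR12, BR13, BR14 and BR15. The part of this difference in labels was not tested. By edgeR's test 0 members passed, 0 of 14689 genes did (0%), 0 members had an unadjusted p under 0.05 (1.41% of all genes) and DESeq2 called 0. In cerebral vGluT2 IPs Lig1 values were 11.9, 12.5 and 19.1 CPM in controls and 15.2, 17.0 and 27.8 in HD (lowest, median and highest), a log2 fold change of 0.39 with an unadjusted p of 0.04126 in the edgeR fit. The highest HD value is that of a library sequenced again with longer reads. It is 1 of 3 such libraries, all of them HD, the others being a PV IP and a cerebellar Gad2 IP. Pms1 was at -0.65 (95% interval -1.51 to 0.22). In the HD cerebral vGluT2 library sequenced again, Pms1 made up 1.15% of the summed MutL FPKM. In the other HD libraries of that group the share was 4.59% to 9.78%. Here edgeR's test called 0 members beside 0.00697% of 14354 genes, 1 had an unadjusted p under 0.05 (7.28% of all genes), and DESeq2 called 0.

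In cerebellar IPs 0 of the 8 passed as well. In Gad2 IPs the 8 log2 fold changes ran from -0.08 to 0.07, with Pms2 at 0.07 (95% interval -0.15 to 0.29) and Msh3 at -0.08 (-0.46 to 0.31). By edgeR's test 0 members passed beside 0.0142% of 14098 genes, 0 had an unadjusted p under 0.05 (2.3% of all genes), and DESeq2 called 0. In vGluT2 IPs 6 of the 8 log2 fold changes were above 0, with a median of 0.14, beside -0.01 over all genes tested. Mlh3 values were 14.9, 16.8, 14.5, 18.0 and 15.5 CPM in controls and 15.4, 19.1 and 23.1 in HD (lowest, median and highest), which overlap, a log2 fold change of 0.28 with an unadjusted p of 0.04476 in the edgeR fit. Msh3 was at 0.21 (95% interval -0.07 to 0.49) and Lig1 at 0.25 (-0.08 to 0.57). There, edgeR's test called 0 members beside 2.11% of 13487 genes, 1 had an unadjusted p under 0.05 (15.5% of all genes), and DESeq2 called 0. A p that misses the threshold does not show that levels did not differ.

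**Figure D2:**
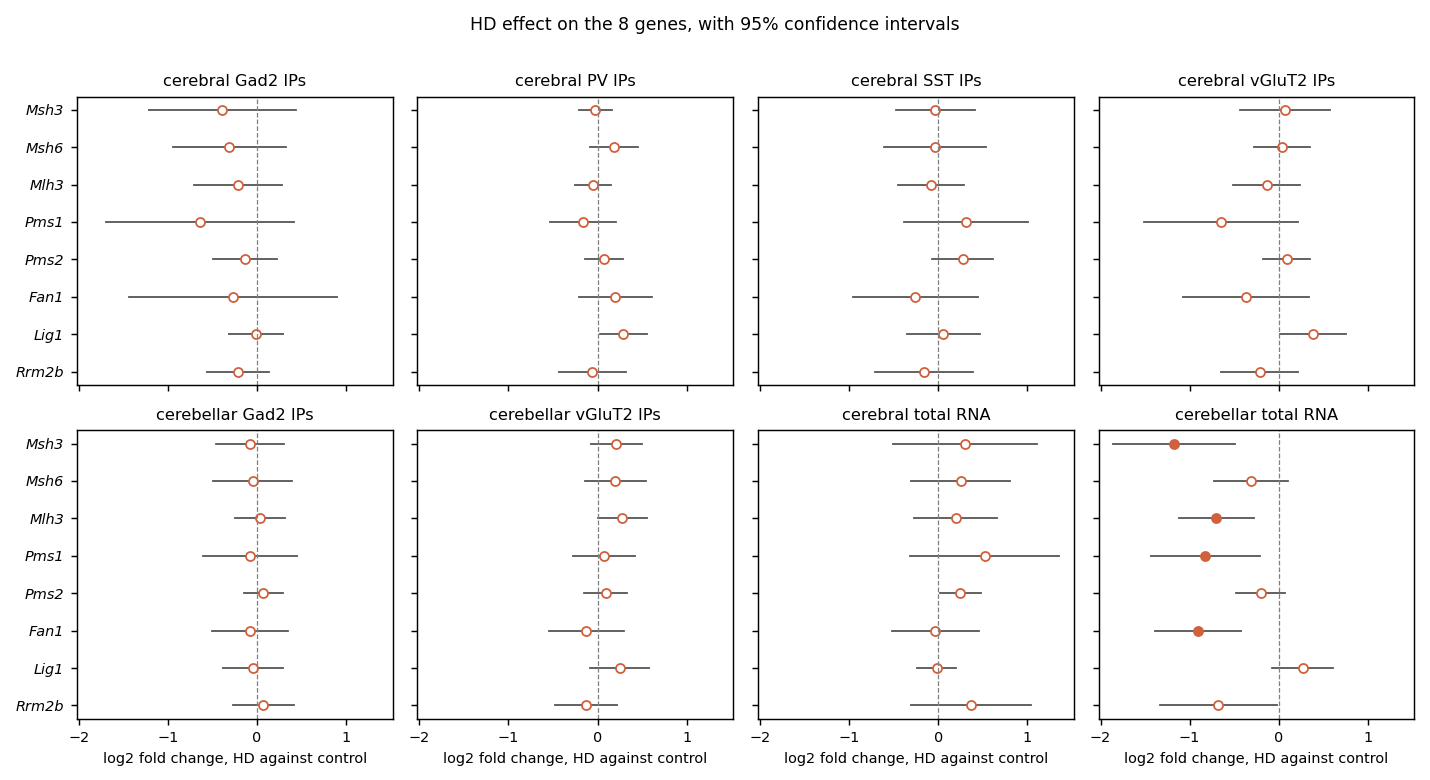
Log2 fold change of HD over control for each gene in 8 comparisons (1 panel per comparison), with 95% intervals from the edgeR fit. Filled points passed at an adjusted p of 0.05 or less, and the filled ones are Fan1 (-0.91), Msh3 (-1.18), Mlh3 (-0.70) and Pms1 (-0.82) in cerebellar total RNA.

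The HD effects were also compared with each other. Between cerebellar vGluT2 and Gad2 IPs, edgeR's interaction test called 0 of the 8 genes beside 0.107% of 13971, and the differences in log2 fold change ran from -0.23 for Rrm2b to 0.27 for Msh3. Between regions it called 0 in Gad2 IPs (0% of 14472 genes) and 0 in vGluT2 IPs (0.323% of 14253). In the latter, which include the cerebral library sequenced again, the largest difference was 0.74 for Pms1 (95% interval -0.16 to 1.63). In each of the 3, 0 members had an unadjusted p under 0.05 (7.08%, 5.37% and 7.45% of all genes) and DESeq2 called 0. In cerebral total RNA of the Gad2, PV and vGluT2 lines, 6 of the 8 log2 fold changes were above 0, with a median of 0.25. The median over all genes tested was 0.02. Pms2 ranged from 7.15 to 11.9 CPM in the 9 control and from 9.27 to 12.7 in the 9 HD inputs, a log2 fold change of 0.25 with an unadjusted p of 0.03756 in the edgeR fit. That test called 0 members beside 0.141% of 14871 genes, 1 had an unadjusted p under 0.05 (6.62% of all genes), and DESeq2 called 0.

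Cerebellar total RNA was the one comparison in which members passed. Msh3, Fan1, Pms1 and Mlh3 were lower in the 7 HD than in the 7 control inputs. Msh3 values of the Gad2 line were 12.0, 15.7 and 10.7 CPM in controls and 8.66, 6.82 and 16.2 in HD, and those of the vGluT2 line 15.7, 19.7, 18.2 and 18.0 in controls and 8.51, 3.95, 4.64 and 4.22 in HD. Fan1 values were 9.27, 7.18 and 7.12 against 5.33, 7.09 and 8.10 in the Gad2 line, and 8.22, 8.42, 8.55 and 7.09 against 3.54, 2.19, 3.89 and 3.23 in the vGluT2 line. In the vGluT2 line control and HD inputs did not overlap for either gene, whereas in the Gad2 line they did. Mlh3 values were 12.4, 13.7 and 12.2 against 10.96, 11.2 and 15.5 in the Gad2 line, and 18.5, 16.6, 17.8 and 17.1 against 7.91, 8.79, 7.97 and 8.33 in the vGluT2 line. Pms1 values were 3.72, 5.33 and 3.32 against 3.92, 3.08 and 5.20 in the Gad2 line, and 6.53, 6.05, 4.96 and 6.81 against 3.61, 2.56, 2.09 and 1.60 in the vGluT2 line. For these genes too the vGluT2 groups did not overlap and the Gad2 groups did. The share of all genes without overlap was not counted, and 51.7% of all genes passed in a fit to the vGluT2 inputs alone.

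In a fit that allows for the Cre line, the log2 fold change was -1.18 for Msh3 (SE 0.32), -0.91 for Fan1 (SE 0.23), -0.82 for Pms1 (SE 0.29) and -0.70 for Mlh3 (SE 0.20). By edgeR's quasi-likelihood test the adjusted p was 0.03083, 0.02803, 0.04932 and 0.03209, 4 of 8 members beside 24.5% of 14477 genes (1732 higher and 1812 lower, median -0.01), and DESeq2 also called 4, beside 34.4% of genes. The others were Rrm2b at -0.68, Msh6 at -0.31, Pms2 at -0.20 and Lig1 at 0.27. In fits to 1 line, added after the data were seen, the Gad2 inputs gave -0.26 for Msh3, -0.19 for Fan1, -0.01 for Mlh3 and -0.01 for Pms1, and edgeR called 0 members and 0 genes. The vGluT2 inputs alone gave 7 called members, 6 lower and Lig1 higher (0.54), among 7565 called genes (51.7%). The difference between the lines was not tested.

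In the vGluT2 line, and for some markers in the Gad2 line, the libraries also differed by genotype in other ways. The base composition index of the vGluT2 inputs ran from -0.17 to 0.56 in controls and from -1.40 to -0.84 in HD, without overlap, so it and the genotype cannot be told apart there, while in the Gad2 inputs it ran from -0.70 to 0.30 and from -1.25 to 0.40. With the index as a covariate the log2 fold changes were -0.60 for Fan1, -0.56 for Msh3, -0.25 for Mlh3 and -0.20 for Pms1, 0 members passed, and 118 genes did. Summed microglial markers (7 genes) were at 86.8 to 105 CPM in control and 157 to 175 in HD vGluT2 inputs. Slc17a7 was at 432 to 742 and 1229 to 1387, and the Gad2 transcript at 101 to 149 and 41.2 to 49.1, while summed GABAergic markers overlapped (723 to 875 and 668 to 767). Sums of PV neuron markers were at 1383 to 1807 and 1972 to 2676, and those of Purkinje cells and molecular layer interneurons at 2346 to 2676 and 1451 to 2124. Markers of astrocytes (4374 to 5056 and 4516 to 5150) and granule cells (1627 to 2440 and 1209 to 2028) overlapped. In the Gad2 inputs, sums of GABAergic markers lay apart, at 751 to 805 in controls and 621 to 708 in HD. So did those of Purkinje cells and molecular layer interneurons, at 2326 to 2627 and 2002 to 2070. PV neuron markers overlapped there (1518 to 2141 and 1405 to 2132). The part of these differences in the members' values was not tested.

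Single libraries decided the calls in cerebellar total RNA. Of the 14 omissions, 11 ended the call of Pms1 (log2 fold change -0.89 to -0.67), 10 that of Mlh3 (-0.74 to -0.63), 9 that of Msh3 (-1.22 to -1.04) and 8 that of Fan1 (-0.95 to -0.77). Only without replicate 3 of the HD Gad2 inputs or replicate 1 or 3 of the control Gad2 inputs did all 4 still pass. Without replicate 3 of the HD Gad2 inputs, Msh6 (-0.49) and Rrm2b (-0.88) passed as well, and Rrm2b did without replicate 1 of the control Gad2 inputs (-0.86). The number of genes called ran from 96 without replicate 4 of the HD vGluT2 inputs to 7408 without replicate 3 of the HD Gad2 inputs. In the replicate 3 library named last Msh3 was at 16.2 CPM, within the range of the controls. Pms1 also lost its call without the filter on counts, at -0.82.

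**Figure D3:**
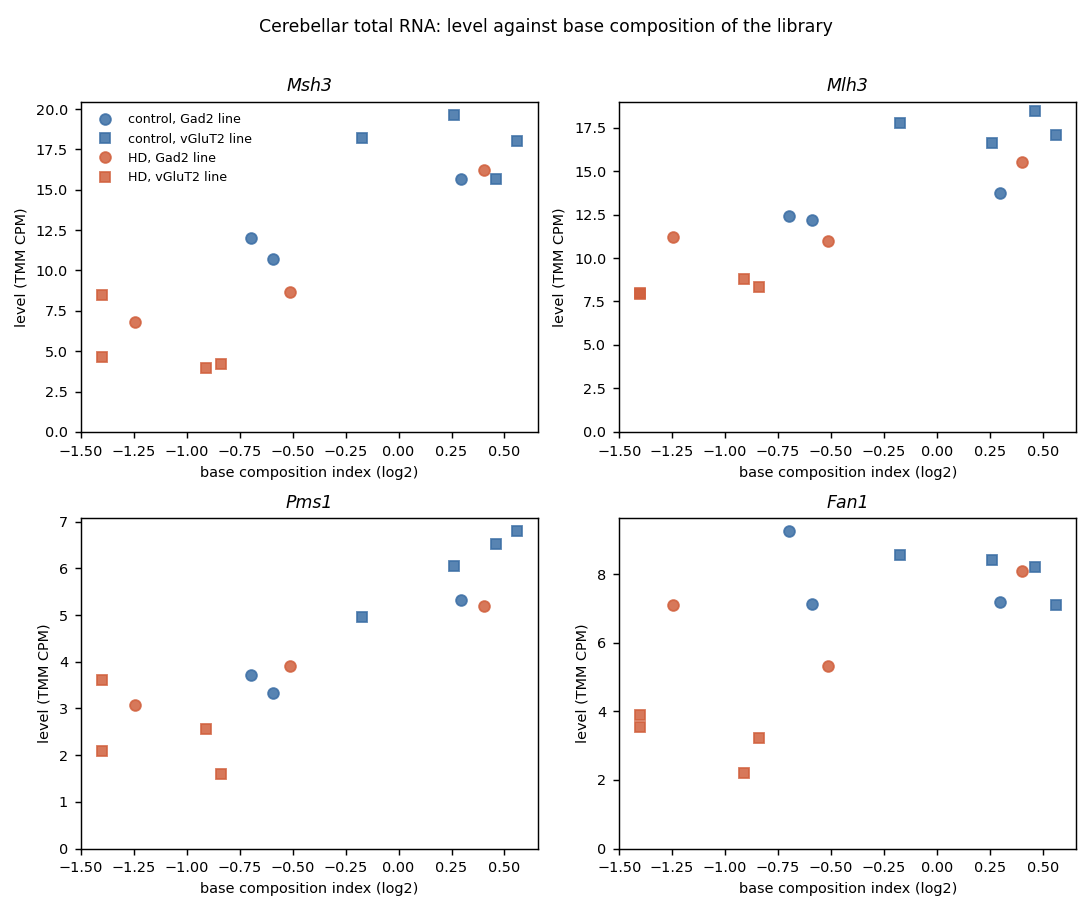
Level of Msh3, Mlh3, Pms1 and Fan1 (CPM) against the base composition index in the 14 cerebellar input libraries, controls in blue and HD in orange, with circles for the Gad2 and squares for the vGluT2 line. The 4 HD vGluT2 libraries lie at an index of -1.40 to -0.84 and, for Msh3, at 3.95 to 8.51 CPM, and the 4 control vGluT2 libraries at -0.17 to 0.56 and 15.7 to 19.7 CPM.

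Of the 8 lists, 0 genes passed in any of the 6 IP comparisons of HD with control, in cerebral total RNA or in the tests between HD effects. In cerebellar total RNA 17 of 98 passed, 7 higher and 10 lower, beside 24.5% of all genes. Crosslink repair had Fancm at -1.61, Usp1 at -0.68, Fancf at 0.59 and Fancc at 0.54, and nucleotide excision repair Uvssa at -1.30, Ercc6 at -1.13, Ercc5 at -0.50, Ddb1 at 0.64 and Ercc1 at 0.56. The p53 targets that passed were all lower, Pmaip1 at -1.34, Ccng1 at -1.04, Mdm2 at -0.75 and Sesn1 at -0.35, 4 of 13. Pold2 (0.54), Fen1 (0.41) and Mcm3 (0.53) were higher and Mcm4 (-0.57) lower, and 0 of 3 other mismatch repair genes and 0 of 10 dNTP genes passed. Of the genes that start beside a member, Aimp2 was higher (0.63, adjusted p 0.02967 in edgeR's test) and Ormdl1 was at -0.45.

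Across the 67 IP libraries, which share lines, regions and runs, the members varied together to different degrees. The Pearson correlation of log2 CPM was 0.81 for Msh6 with Pms1, 0.81 for Msh3 with Mlh3, 0.80 for Fan1 with Msh3 and 0.78 for Msh3 with Msh6. Rrm2b stood apart, at -0.61 with Lig1 and between -0.22 and 0.15 with the other 6. Among 14648 protein-coding genes, the 2 most alike to Msh3 were Senp6 (0.91) and Ahctf1 (0.90), to Msh6 Sec24b (0.92) and Nbr1 (0.92), to Mlh3 Ttc3 (0.88) and Dnajc13 (0.86), to Pms1 Jmjd1c (0.94) and Alms1 (0.92), and to Pms2 Clip1 (0.89) and Slco2a1 (0.84). For Fan1 they were Rnf20 (0.91) and Golga3 (0.89), for Lig1 Exosc10 (0.82) and Pola2 (0.82), and for Rrm2b Sppl2a (0.88) and Il1rapl1 (0.87). Over the same libraries the base composition index correlated at 0.73 with Rrm2b, 0.59 with Pms1, 0.55 with Msh3, 0.49 with Mlh3, 0.48 with Fan1, 0.46 with Msh6, 0.25 with Pms2 and -0.18 with Lig1.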

How the data were processed

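The authors ran nf-core/rnaseq (STAR, Salmon) on paired reads of stranded mRNA libraries against GRCm38.p6 and deposited an estimated count per gene, without normalization. The annotation release is not stated in the sources used here. Of the deposited values 8.57% were not whole, and all were rounded. The 92 spike-ins (at most 4.45% of a library) were left out. GENCODE M21 supplied gene types, lengths and GC content and held 55141 of the 55401 identifiers. The genes tested were protein-coding and averaged more than 10 counts over a comparison's libraries. They were tested with edgeR 4.0.16 (R 4.3.3, limma 3.58.1) by the quasi-likelihood test after TMM, and called at a Benjamini-Hochberg adjusted p of 0.05 or less over all genes tested. DESeq2 1.42.0 was an alternative. CPM in the text, and overlaps of groups unless said otherwise, are from TMM over all libraries. The members and lists were chosen with earlier results of these data known.

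All 8 members are named. Of the other lists, genes called in a HD comparison are named, and in control comparisons the 3 of each list with the largest absolute log2 fold change among those called, given here for the 2 comparisons of cerebellar vGluT2 IPs and by counts elsewhere. The 2 genes most correlated with each member, and protein-coding genes that start within 1000 bases on the other strand, are named too, except that withheld items are not reported. Regions compared within the Gad2 and vGluT2 lines come from the same mice by the mouse identifiers in the labels, and so do 37 pairs of IP and input. Deviations of the same mouse's libraries from their group means correlated at -0.28 to 0.62 over 6 Gad2 pairs and -0.24 to 0.30 over 5 vGluT2 pairs. No replicates were duplicates, since chi-square over its degrees of freedom was at least 8.37 in 201 pairs. The tests were tried on simulated data.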

Additional observations from a re-analysis of the deposited data

Results flagged for a closer look

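In 120 sets of values of 1 gene in 1 group, 8 held a library that stood apart from the rest, and in 15 sets of the base composition index 3 did. Chance alone also sets a library apart in some such groups. For Msh3, control cerebellar Gad2 IP replicate 5 was high at 33.2 CPM (the next at 21.9), control cerebellar vGluT2 IP replicate 1 was low at 21.1 (next 30.1) and HD cerebellar vGluT2 input replicate 1 was high at 8.51 (next 4.64). The first pair are the libraries without which Msh3 passes between those 2 groups. Msh6 was low in HD cerebellar vGluT2 IP replicate 2, at 33.7 CPM (next 44.9), and Pms2 in replicate 6 of the same group, at 16.2 (next 22.1). Lig1 was high in the HD cerebral vGluT2 IP that was sequenced again, at 27.8 CPM (next 18.1). Rrm2b was low in HD cerebellar Gad2 IP replicate 4, at 21.9 CPM (next 39.5), and in HD cerebral vGluT2 IP replicate 4, at 22.5 (next 33.5). The base composition index was low in control PV IP replicate 6, at -0.61 (next 0.05), in control cerebral vGluT2 IP replicate 1, at -0.80 (next -0.02), and in HD cerebellar Gad2 IP replicate 4, at -0.76 (next 0.14). The last is the library low in Rrm2b.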

How the results depend on the processing

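The finding that 0 of the 8 genes passed held in all 6 IP comparisons of HD with control, in cerebral total RNA, between SST and PV IPs and in the 3 tests between HD effects under every alternative tried, including DESeq2 and each library left out. Fits with a base composition or length index, fits to inputs of 1 line, and the fit of total RNA between regions to the 4 mice that gave both, were chosen after seeing the data. In cerebellar total RNA the 4 members called became 0 with the replicate block, at log2 fold changes no smaller than in the main fit (Msh3 -1.28, Fan1 -0.93, Pms1 -0.86 and Mlh3 -0.71), 0 with the base composition index (Msh3 -0.56, Fan1 -0.60, Pms1 -0.20 and Mlh3 -0.25), 0 with the length index, 0 in Gad2 inputs and 7 in vGluT2 inputs, and 0 to 6 with 1 library left out. For the 1 member called between regions in Gad2 IPs, counts were 0 with DESeq2 size factors, 0 on library totals, 0 with the length index, 2 with the replicate block and 0 to 2 with 1 library left out. The 2 members called between PV and Gad2 IPs became 1 by DESeq2, 1 with its size factors, 1 without the filter, 0 with the length index and 1 to 3 with 1 library left out. The 2 called between cerebral vGluT2 and Gad2 IPs became 1 on library totals and 1 to 2 with 1 library left out, and the 4 between cerebellar vGluT2 and Gad2 IPs 2 to 5. Against total RNA, the 7 members called in cerebral Gad2 IPs became 0 with the mouse as a block and inputs of that line, and 3 with the base composition index. The 8 in SST IPs became 5 with that block and 2 with the length index. The 7 in cerebral vGluT2 IPs became 4 with either index. The 2 in cerebellar Gad2 IPs became 0 with size factors, 0 on library totals, 4 with the base composition index and 0 to 2 with 1 library left out. In paired regions of the vGluT2 line the block kept all 5 calls. Directions reversed with an index, or with inputs of 1 line and a block, as follows. Between PV and Gad2 IPs, Msh3 (-0.084) and Mlh3 (-0.061) with length. Between regions in total RNA, Mlh3 (-0.010) and Rrm2b (-0.54) with length and Rrm2b (-0.57) with base composition. In cerebral Gad2 IPs against total RNA, Mlh3 with inputs of that line and the mouse as a block (-0.047) and, with base composition, Mlh3 (-0.10), Rrm2b (-4e-04) and Ercc6 (-0.17). In PV IPs, with base composition, Rrm2b (-0.26), Uvssa (-0.11) and Ormdl1 (-1.04) and, with length, Rrm2b (-0.52), Ercc6 (-0.25), Uvssa (-0.52), Pmaip1 (-0.20), Ormdl1 (-1.05) and Aimp2 (0.18). In SST IPs, with base composition, Rrm2b (-0.17), Trp53inp1 (-0.33) and Ormdl1 (-0.87) and, with length, Fan1 (-0.069), Rrm2b (-0.41), Ercc6 (-0.29), Uvssa (-0.043) and Trp53inp1 (-0.89). In cerebral vGluT2 IPs, with base composition, Rrm2b (-0.10), Ercc6 (-0.23), Pmaip1 (-0.31) and Ormdl1 (-0.25). The cause was not tested. Of other values for single genes, 3202 kept side and direction, 342 were no longer called and 34 became called, and with 1 library left out 7502, 538 and 29, with 0 reversed. Over all genes, HD calls changed by more than 1.5 times in cerebral Gad2 IPs (4) to 75 by DESeq2, 9 with the block and 16 with base composition; in PV IPs (5) to 42, 0 and 17; in SST IPs (0) to 2 by DESeq2 and 1 with the block; in cerebral vGluT2 IPs (1) to 25 by DESeq2, 0 with size factors, without the filter and with the block, 6 with base composition and 2 with length; in cerebellar Gad2 IPs (2) to 22 by DESeq2, 1 with size factors or no filter and 0 with the block; in cerebellar vGluT2 IPs (285) to 665 by DESeq2, fewer with the block, 625 with base composition and 722 with length; in cerebral total RNA (21) to 119 by DESeq2, 317 and 442 with the indices, 96 with SST inputs and 0 in the inputs of any 1 line; in cerebellar total RNA (3544) to 9 with the block, 118 and 105 with the indices, 0 in Gad2 and 7565 in vGluT2 inputs. With 1 library left out these HD calls ran, in the same order, from 3 to 12, 0 to 4, 0 to 1, 0 to 1, 0 to 3, 149 to 255, 4 to 43 and 96 to 7408. PV against Gad2 IPs (8404) gave 4668 with length, and IPs against total RNA, with inputs of the same line and the mouse as a block, 2437 in cerebral Gad2 (9260) and 4593 in cerebellar Gad2 (8214), and with length 3635 in SST (9194). Differences between HD effects gave, for 15, 73 by DESeq2, 63 and 86 with the indices, for 0, 21, 5 and 4, and for 46, 126, 30 with the block, 153 and 79, and with 1 library left out 13 to 25, 0 to 5 and 32 to 67. In HD comparisons replicate numbers belong to different mice, so the block has no design behind it: same-numbered libraries correlated at -0.82 to 0.96, and 13 of 45 HD libraries correlated best with their own number. Levels on library totals moved by more than the spread of the group in 15 of 192 values, and levels per longest transcript in 167. Depth limits Pms1 most, with as few as 14 counts in a library.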
